A study of Homo sapiens with 6 samples.

Results

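Keratins of basal and stressed epithelium were described on Clariom D arrays in human breast epithelial cells and in their fluvastatin-resistant derivative. The 8 genes were KRT5, KRT6A, KRT6B, KRT6C, KRT14, KRT15, KRT16 and KRT17. They were chosen by gene symbol, with earlier results of these arrays known, so their differences between the lines describe them and are no independent support for a keratin response. The main probe set of a gene was to be selected on the highest mean over 5 arrays, and since each of the 8 genes had 1 probe set, that level decided nothing. The 8 probe sets stand among 135750 probe sets for transcripts, with 81496 gene symbols in all. All 8 were among the 51457 that passed the filters on low and invariant values. The filter on invariant values used the SD over both lines together, so a difference between the lines helped a probe set to pass.

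The parental line, MCF10.AT1, is a preneoplastic member of the MCF10A series, known to carry an activated HRAS gene, and the labels list it as untreated. MCF10.AT1-R derives from it and shares that background. The resistant line, MCF10.AT1-R, was selected from MCF10.AT1 in fluvastatin, raised from 1 through 5 to 20 µM. Fluvastatin inhibits HMG-CoA reductase, the rate-limiting enzyme of the mevalonate pathway. The resistant arrays came from 1 selected line, and whether it was a clone or was still in fluvastatin at harvest is not given in the sources used here. The replicates are labelled biological and their cultures are not further described, so the arrays show the spread between these samples only. Each SE given here rests on a spread that limma pooled over all tested probe sets. The arrays read RNA of all cells of a culture together, so that fewer cells with a transcript and less of it per cell cannot be told apart.

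Of the 6 arrays, 3 were of MCF10.AT1 (A01, A02 and A03) and 3 of MCF10.AT1-R (B02, B03 and B04). The line of each array rests on the letter in its name. The study removed A03 as an outlier, and A03 is shown apart here. The mean of the hybridization controls was 5.99 on A03 and 10.35 to 11.33 on the other 5 arrays (log2). Over all transcript probe sets, A03 correlated with the other arrays at r = 0.779 to 0.795, while those correlated with each other at 0.967 to 0.977. All values are log2 expression levels, and differences are MCF10.AT1-R minus MCF10.AT1 over A01, A02, B02, B03 and B04.

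Keratins build the intermediate filaments of epithelial cells as obligate pairs of a type I (acidic) and a type II (basic) protein. In basal cells of stratified and glandular epithelia, the type II keratin KRT5 pairs with the type I keratins KRT14 and KRT15. Wounded, inflamed or stressed epithelium adds the type II keratins KRT6A, KRT6B and KRT6C and the type I keratins KRT16 and KRT17. In the breast, basal keratins are known as markers of the basal and myoepithelial layer and of basal-like tumours.

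The promoter of KRT5 is shown because KRT5 was the 1 member of the 8 that the table of RefSeq promoters held. The 250 bases before the RefSeq start of KRT5 lie at chr12:52520395-52520644 on the minus strand of GRCh38.p14 and have a GC content of 56.0%. They are written 5′ to 3′ on the strand of the gene, and the capitals mark the only matches to the 6 motifs searched on both strands.
KRT5 promoter: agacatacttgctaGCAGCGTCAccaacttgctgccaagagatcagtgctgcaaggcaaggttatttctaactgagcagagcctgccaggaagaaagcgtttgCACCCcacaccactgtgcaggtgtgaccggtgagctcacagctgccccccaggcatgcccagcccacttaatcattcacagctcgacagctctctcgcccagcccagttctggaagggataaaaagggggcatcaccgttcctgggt
The first run of capitals is the antioxidant response element core TGACNNNGC, read on the strand opposite to the gene, which 10.9% of 35116 promoter windows of this length held. The second run is the KLF motif CACCC, which 54.7% of the windows held. The exact letters TATAAA (10.7% of windows), GGGCGG of SP1 (42.6%), TGANTCA of AP-1 (6.57%) and GCCNNNGGC of AP-2 (19.8%) did not occur in this window. The matches are letters in a window and show nothing about binding.

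All 8 keratins stood higher on each of the 3 MCF10.AT1-R arrays than on both MCF10.AT1 arrays, and 7 of them passed FDR 5% by limma. The median of their log2 differences was 1.79, where the median over all tested probe sets was -0.01. Over all tested probe sets, 0.758% were called higher and 0.447% lower in MCF10.AT1-R, and 12.9% had all resistant arrays above both parental arrays. Among the 969 tested probe sets at least as bright as the dimmest keratin, 5.16% were called higher. Nothing is read from the 7 of 8 against these shares, because the genes were proposed with this contrast in view. The differences of the 8 genes ran from 0.59 for KRT15 to 4.08 for KRT17.

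KRT5, the type II keratin of basal cells, read 8.80 on A01 and 8.74 on A02, and 10.45, 10.42 and 10.57 on B02, B03 and B04. The lines did not overlap, and the replicates of each lay close together. Its log2 difference was 1.71 (SE 0.31, 95% interval 1.10 to 2.32), a 3.28-fold higher level, with an adjusted p of 1.35e-05. A03 read 3.87, far below both other parental arrays.

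KRT14, the main type I partner of KRT5, read 5.94 and 5.85 on the parental arrays and 8.20, 8.08 and 8.52 on the resistant arrays. B04 was the highest, and the lowest resistant array stood well above both parental arrays. The log2 difference of KRT14 was 2.37 (SE 0.31, 95% interval 1.76 to 2.98), a 5.17-fold higher level, with an adjusted p of 2.36e-11. Its SD over the resistant arrays, 0.23, was the largest of the 8 genes in either line. A03 read 4.28.

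KRT15, the other basal type I keratin and a known marker of epithelial progenitors in skin, read 8.92 and 8.79 on the parental arrays and 9.34, 9.58 and 9.42 on the resistant arrays. The lines did not overlap, but the gap between the highest parental and the lowest resistant array was only 0.42. The log2 difference was 0.59 (SE 0.31, 95% interval -0.02 to 1.20) and did not pass the test (adjusted p = 0.628). The call depended on how the spread was modelled: with a variance trend on the expression level, KRT15 passed with an adjusted p of 3.98e-07. A03 read 3.59.

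KRT6A, a type II keratin of wounded and stressed epithelium, read 8.93 and 9.06 on the parental arrays and 10.76, 10.60 and 10.81 on the resistant arrays. Its log2 difference was 1.73 (SE 0.31, 95% interval 1.12 to 2.34), a 3.31-fold higher level, with an adjusted p of 1.05e-05. The size lay within 0.02 of that of KRT5, and the lines did not overlap.

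KRT6B, a close copy of KRT6A, read 8.44 and 8.47 on the parental arrays and 10.29, 10.15 and 10.48 on the resistant arrays. The parental values were nearly equal, and the resistant arrays were all higher. The log2 difference of KRT6B was 1.85 (SE 0.31, 95% interval 1.24 to 2.46), a 3.61-fold higher level, with an adjusted p of 1.26e-06. KRT6C, the other copy, read 7.98 and 8.19 on the parental arrays and 10.04, 9.99 and 10.06 on the resistant arrays. The resistant arrays of KRT6C agreed to an SD of 0.03, and all were above the parental arrays. The log2 difference of KRT6C was 1.95 (SE 0.31, 95% interval 1.34 to 2.56), a 3.86-fold higher level, with an adjusted p of 2.17e-07. The 3 KRT6 genes are near-identical in sequence and their probe sets may read one another's transcripts, so which of them rose is uncertain. On A03 the 3 genes read 4.75, 5.45 and 3.14.

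KRT16, a type I partner of the KRT6 proteins, read 6.95 and 6.84 on the parental arrays and 8.22, 8.32 and 8.37 on the resistant arrays. The lines did not overlap. The log2 difference of KRT16 was 1.41 (SE 0.31, 95% interval 0.80 to 2.02), a 2.65-fold higher level, with an adjusted p of 0.00123. Its call rested on both parental arrays, since the adjusted p was 0.0562 without A01 and 0.129 without A02. A03 read 5.998, the closest of the 8 genes to the other parental arrays.

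KRT17, the type I keratin known from wound edges, skin appendages and basal-like tumours, read 6.56 on both parental arrays and 10.61, 10.57 and 10.73 on the resistant arrays. The highest parental and the lowest resistant array were 4.004 apart, the widest gap of the 8 genes. The log2 difference of KRT17 was 4.08 (SE 0.31, 95% interval 3.47 to 4.69), a 16.9-fold higher level, with an adjusted p of 3.62e-35. Of all 51457 tested probe sets, 5 rose more than KRT17. The count of probe sets that rose more was 51 for KRT14, 182 for KRT16 and 2241 for KRT15, and between 80 and 117 for the KRT6 genes and KRT5. A03 read 4.83, below both other parental arrays.

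**Figure D1:**
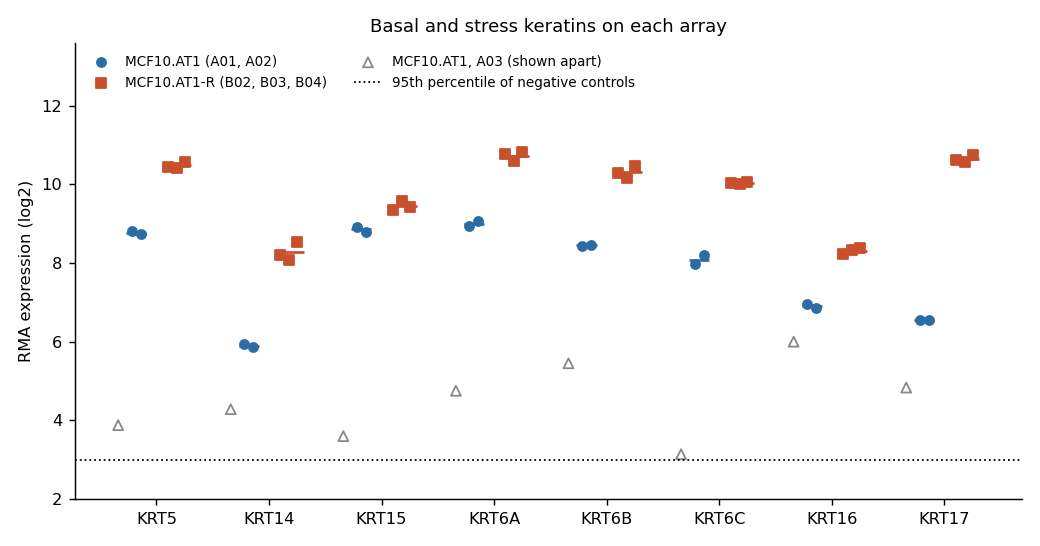
Log2 expression (vertical axis) of the 8 keratins on each array, with circles for the MCF10.AT1 arrays A01 and A02, squares for the MCF10.AT1-R arrays open triangles for the removed array A03, short lines at the mean of each line and a dotted line at the level of the negative controls (2.99). For every gene the squares lie above the circles, and the triangle lies below them.

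**Figure D2:**
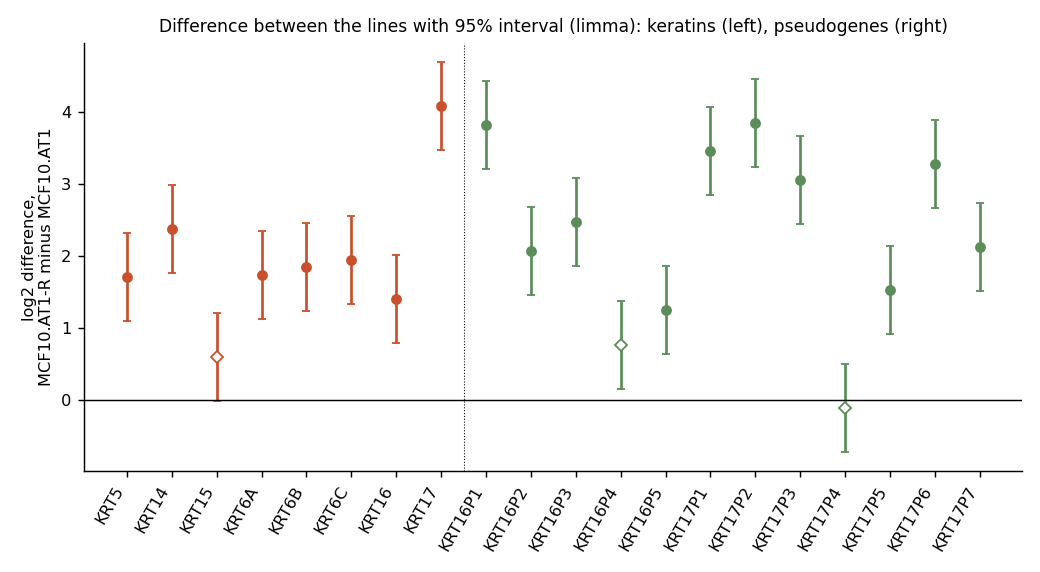
Log2 difference, MCF10.AT1-R minus MCF10.AT1, of each keratin (left) and of 12 pseudogenes of KRT16 or KRT17 (right), with 95% intervals from limma. Among the keratins, the interval of KRT17 (3.47 to 4.69) lies above all others, and that of KRT15 (-0.02 to 1.20) includes 0. The pseudogenes KRT17P2 (3.85) and KRT16P1 (3.81) lie near KRT17.

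The replicates of the 8 genes lay close together. The SD within a line ran from 0.004 (KRT17 in MCF10.AT1, n = 2) to 0.23 (KRT14 in MCF10.AT1-R, n = 3). The residual SD of each gene over both lines was 0.07 to 0.19, and all 8 were below the common SD of 0.34 that limma gave every probe set, which is why the SE was the same for each. With 2 arrays against 3, an exact permutation test of a single gene cannot give a p below 0.1, so the calls rest on the spread pooled over all probe sets. Without the filter on invariant values, limma called the same 7 genes, but with larger adjusted p. These were 8.85e-04 for KRT17, 0.00718 for KRT14, 0.0139 for KRT5 and 0.0322 for KRT16. With neither filter they were 3.65e-04, 0.00510, 0.0144 and 0.0368. On A03 all 8 keratins were lower than on both other parental arrays, by 0.84 to 5.20, and with A03 counted as a parental array KRT17 alone passed (log2 difference 4.65, adjusted p = 0.0387).

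The type II keratins moved by similar amounts and the type I keratins did not. The differences of KRT5, KRT6A, KRT6B and KRT6C fell within 0.24 of each other (1.71 to 1.95), while those of KRT14, KRT15, KRT16 and KRT17 spanned 3.48. Since the probe sets of KRT6A, KRT6B and KRT6C may read one another's transcripts, their closeness may be that of a shared signal. No test of one keratin's difference against another's was run across genes, and the ratios between them on each array are given as a description. Probe sets of different genes are not on one scale, so only the shift of a ratio between the lines can be read, and a shift shows unequal change.

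The log2 ratio of KRT5 over KRT14 was 2.86 and 2.89 on the parental arrays and 2.25, 2.34 and 2.05 on the resistant arrays. KRT14 had thus risen more than KRT5, by 0.66, without overlap. The ratio of KRT5 over KRT15 shifted the other way, from a mean of -0.08 to 1.04. Among the stress keratins, KRT6A over KRT16 shifted from 2.10 to 2.42 and KRT6B over KRT16 from 1.56 to 2.00, so that KRT6A and KRT6B differed by more than KRT16 on these arrays. Against KRT17 the same genes fell back, with KRT6A over KRT17 moving from 2.44 to 0.09 and KRT6B over KRT17 from 1.90 to -0.33.

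Within the type I keratins, KRT17 over KRT14 shifted from 0.66 to 2.37, KRT16 over KRT14 from 1.00 to 0.04 and KRT15 over KRT14 from 2.96 to 1.18, each without overlap between the lines. The probe sets of KRT14, KRT16 and KRT17 may also read one another's transcripts, which was not tested. Their separate differences and the ratios between them are uncertain to that extent. The ratio of KRT6A over KRT5 averaged 0.23 on the parental and 0.24 on the resistant arrays, and its values overlapped.

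**Figure D3:**
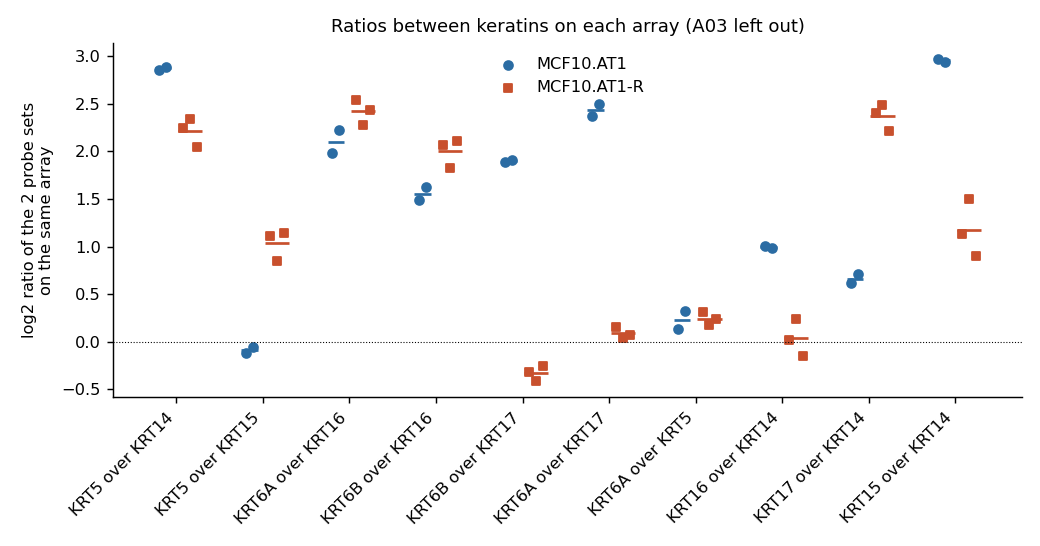
Log2 ratio of 1 keratin over another on each array without A03, for 10 pairs, with circles for MCF10.AT1, squares for MCF10.AT1-R and short lines at their means. KRT6A over KRT5 is the 1 pair whose lines overlap, and KRT6A over KRT17 and KRT6B over KRT17 shift the most (-2.35 and -2.23).

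The likeness of profiles was measured over the 5 arrays as the root mean square of the differences between the log2 values of a pair of probe sets, each centred on its own mean. The pair nearest to each other was KRT5 with KRT6A (0.0737 log2 units), followed by KRT6A with KRT6B (0.0834), and the pair farthest apart was KRT15 with KRT17 (1.71). Among 35758 other gene symbols, the nearest to KRT5 included RAB25 (0.0270) and MVD (0.0362). RAB25 is an epithelial trafficking GTPase and MVD an enzyme of the mevalonate pathway. The nearest to KRT6C included SAT1 and ANXA8, and to KRT6B and KRT6A they included ITGB6 (0.0574), PLK2 (0.0626 from KRT6A) and HBEGF (0.0771 from KRT6A). The nearest to KRT14 were CXCL16 (0.0619), MACC1 and KLK6, to KRT15 FASN (0.0309), the fatty acid synthase, and to KRT16 SDCBP2 (0.0422). With 5 arrays in 2 lines, this measure mostly finds probe sets with a difference of the same size.

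The nearest symbols to KRT17 lay farther from it than the nearest of any other member did. They were the pseudogene KRT17P2 (0.118), ADAMTS1 (0.154), a secreted metalloproteinase, and the pseudogene KRT16P1 (0.159). The parental mean of ADAMTS1 was 1.80, below the level of the negative controls (2.99), so the size of its difference is uncertain. The array carried 12 pseudogenes of KRT16 or KRT17, of which 10 were called higher in MCF10.AT1-R. KRT17P2 read 5.62 and 5.65 on the parental arrays and 9.41, 9.47 and 9.57 on the resistant arrays, a log2 difference of 3.85. KRT16P1 read 5.53 and 5.47 against 9.22, 9.39 and 9.31, a difference of 3.81, which is nearer to that of KRT17 than to that of KRT16. The lines were far apart for both pseudogenes, while KRT17P4 (-0.11) and KRT16P4 (0.77) did not pass. The pseudogenes are copies of their parent genes, and how alike the sequences are was not measured here. Their probe sets may read KRT16 or KRT17 transcripts, so their own change is uncertain. All 12 read higher on A03 than on both other parental arrays, where the keratins themselves read lower.

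The type II members are neighbours in one keratin cluster and the type I members lie in another, by the gene order of the RefSeq table for GRCh38.p14. The neighbours were looked up after the values of the keratins had been seen, and the build of the arrays' annotation is not given in the sources used here, so only the order is used. The row KRT6B, KRT6C, KRT6A and KRT5 is flanked by KRT75 (log2 difference 0.58, adjusted p = 0.650) and KRT71 (0.54, adjusted p = 0.691), neither of which passed. In the type I cluster, KRT14, KRT16 and KRT17 stand together between KRT9 (0.23, adjusted p = 0.862) and the pseudogene KRT42P (0.07, adjusted p = 0.963). KRT15 follows KRT13 (0.64, adjusted p = 0.563) and precedes KRT19. MIR6510, between KRT15 and KRT19, and LOC124904003, between KRT14 and KRT16, were not matched to a symbol on the array.

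KRT19, a type I keratin of simple and luminal epithelium, read 6.08 and 6.02 on the parental arrays and 9.05, 8.84 and 9.01 on the resistant arrays. The log2 difference of KRT19 was 2.91 (adjusted p = 1.41e-17), larger than that of every basal or stress keratin except KRT17.

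**Figure D4:**
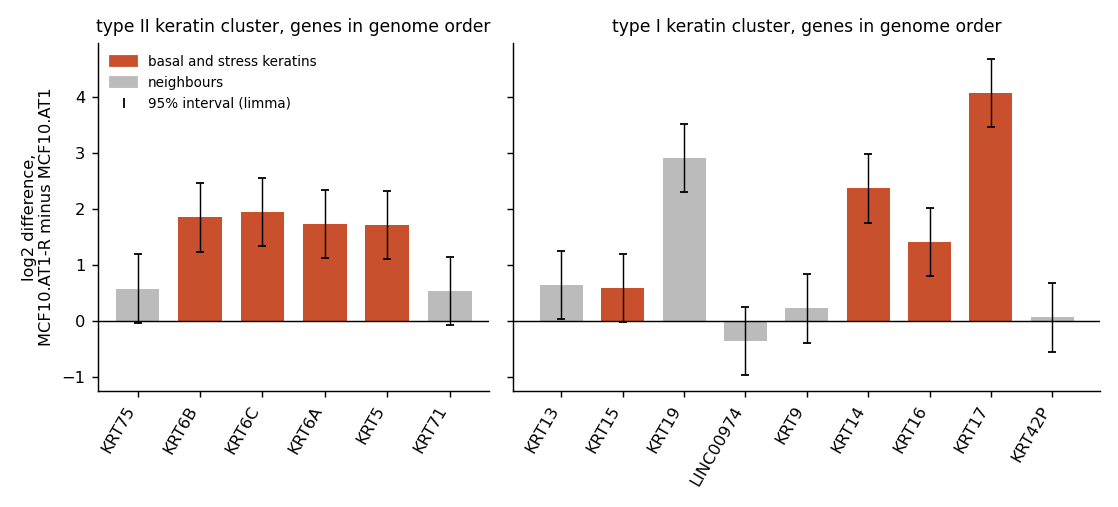
Log2 difference, MCF10.AT1-R minus MCF10.AT1, with 95% intervals from limma, for keratins and neighbouring genes in genome order in the type II cluster (left) and the type I cluster (right). The members of the group are in red and their neighbours in grey, and KRT19 (2.91) is the 1 grey bar that passed the test.

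Lists of related genes were written with earlier results of these data known and are given as counts. Of the 5 simple epithelial keratins, KRT19 and KRT8 (1.11, adjusted p = 0.0358) were called higher and none lower, and the median difference was 0.85. The call of KRT8 was lost without A01, A02, B02 or B04, and also with the low-expression filter alone or no filter, which left KRT19 as the 1 call of the list. KRT18, the partner of KRT8, differed by 0.85 and did not pass (adjusted p = 0.243). Of the 16 suprabasal and mucosal keratins, 12 were tested and only KRT1 (1.10, adjusted p = 0.0366) and KRT23 (1.11, adjusted p = 0.0356) were called, both higher, and the median difference was 0.37. KRT1 is the type II keratin of differentiating epidermis. Neither call held without A01, A02, B03 or B04, and 1 of them held without B02. Both were also lost with the low-expression filter alone and with no filter.

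Of the 19 genes for proteins that bind or anchor keratin filaments, 4 were called higher and 1 lower of 16 tested, with a median difference of 0.55. COL17A1, a hemidesmosome collagen that links basal keratins to the basement membrane, read 7.95 and 7.92 on the parental arrays and 9.71, 9.81 and 9.86 on the resistant arrays. Its difference of 1.87 (adjusted p = 1.00e-06) was near those of KRT5 and the KRT6 genes. DSP, which ties keratins to desmosomes, differed by 1.41, SFN, which binds KRT17 in the cytoplasm, by 1.28, and JUP, a desmosomal plakoglobin, by 1.25. The calls of DSP, SFN and JUP rested on both parental arrays, and COL17A1 was the 1 gene called higher without A01 or without A02. SFN and JUP also lost theirs with the low-expression filter alone and with no filter. VIM, the mesenchymal intermediate filament protein, read 7.43 and 7.54 against 5.69, 5.57 and 6.25. It was thus lower on all resistant arrays, and its log2 level fell by 1.64 (adjusted p = 3.95e-05). This call was lost on the same arrays with the low-expression filter alone (adjusted p = 0.0683), with no filter (0.0701) and with values under the negative controls raised (0.0833), and the mean over the probe sets of VIM gave a difference of -1.09.

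Of 29 transcription factors known to act on basal or stress keratin genes, 23 were tested, 1 was called higher and 1 lower, and the median difference was 0.16. TP63, which maintains basal epithelial identity and drives KRT5 and KRT14, read 4.55 and 4.08 on the parental arrays and 5.97, 6.20 and 6.03 on the resistant arrays. Its lines did not overlap, and its difference was 1.74 (adjusted p = 8.14e-06). THRA, a thyroid hormone receptor that represses keratin genes with its ligand, read 5.92 and 5.50 against 4.88, 4.36 and 4.33. The log2 level of THRA fell by 1.19 (adjusted p = 0.0169), a call that held without B02 and was lost without any other array, while TP63 kept its call without each array. THRA also lost its call with the low-expression filter alone, with no filter and with values under the negative controls raised.

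Of 30 genes of activated or wound-edge keratinocytes, 24 were tested, 8 were called higher and 1 lower, and the median difference over all 30 was 0.28. CD24, a surface glycoprotein, differed by 3.59 and read 4.43 and 4.64 against 8.28, 7.92 and 8.17. IL1RN, the antagonist of interleukin-1 receptors, differed by 3.27, LCN2, the siderophore-binding lipocalin, by 3.13, and S100A8, an alarmin, by 2.89. Some of the parental readings of these 3 genes were at the level of the negative controls, below 2.99, on 1 array for IL1RN and LCN2 and on both for S100A8. With values under the negative controls raised, S100A8 differed by 1.65 and did not pass (adjusted p = 0.107). ITGA5, the fibronectin receptor subunit raised in migrating keratinocytes, fell by 1.53 (adjusted p = 2.22e-04), a call lost without A02, and its difference turned to 0.64 with A03 added. Another 9 genes of the list, among them S100A7, S100A12, IL36G and DEFB4A, were within the negative controls on all 5 arrays.

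Markers of several cell types also differed between the lines. Of 13 basal markers, 8 were called higher, among them the members KRT5, KRT14 and KRT17, and of the 10 others 5 were called. The summed log2 level of the 13 was 94.0 to 94.3 on the parental and 113.3 to 114.0 on the resistant arrays. That sum includes KRT5, KRT14 and KRT17. The median difference of the 10 other basal markers was 1.12. Of 12 luminal markers, 3 (KRT19, KRT8 and MUC1) were called higher, and their sum moved from 67.8 to 68.1 up to 74.7 to 76.3. The 3 luminal calls became 1 without A01 or without A02, 2 without B02 or without B04, 1 with the low-expression filter alone or no filter, and 7 with the variance trend. PGR and ELF5 of that list were within the negative controls on all 5 arrays, and the mean level of ESR1 was 3.17 on the parental and 2.74 on the resistant arrays.

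Of 9 markers of cornifying keratinocytes measured, IVL (3.23, adjusted p = 9.18e-22), a cornified envelope precursor, CDSN (1.14) and KRT1 were called higher, while FLG, CASP14 and DSG1 were within the negative controls on all 5 arrays. Without A01, A02, B02 or B04, and with the low-expression filter alone or no filter, the list had 1 call, and without B03 it had 2. The summed level of these markers was 26.01 to 26.13 on the parental and 31.3 to 32.8 on the resistant arrays. Of 6 contractile markers of myoepithelium, TAGLN alone was called, higher by 2.62, with MYH11 within the negative controls. Their sums were 22.4 to 22.8 on the parental and 24.5 to 25.2 on the resistant arrays. The median difference of the 6 was only -0.03, so the higher sum reflects TAGLN more than the list. Of 10 mesenchymal markers, VIM and ZEB1 (-1.69, adjusted p = 1.90e-05) were called lower, and their sum was 54.5 to 55.4 on the parental and 50.3 to 51.5 on the resistant arrays, with PDGFRB within the negative controls. ZEB1 lost its call without A02, and VIM and ZEB1 both lost theirs with the low-expression filter alone, with no filter and with values under the negative controls raised. TAGLN did not pass with those values raised (adjusted p = 0.0644). The part of these markers' cells or programmes in the keratin differences was not tested.

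**Figure D5:**
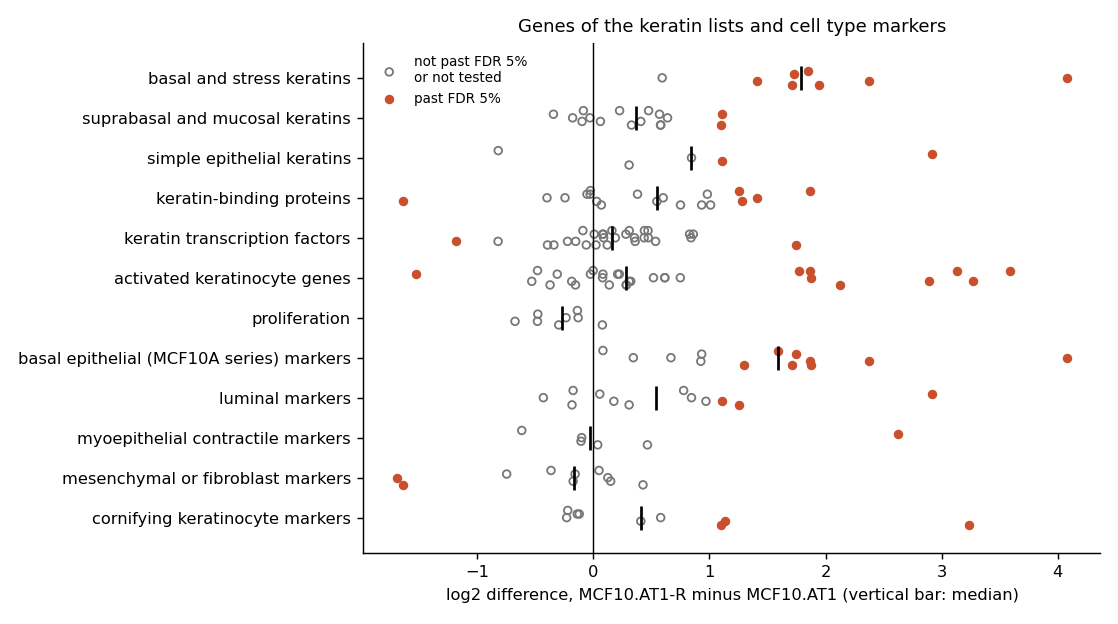
Log2 difference, MCF10.AT1-R minus MCF10.AT1, of each gene in the keratin group, the 6 related lists and the 5 marker lists, with filled points for genes past FDR 5% and a vertical bar at the median. The medians are 1.79 for the 8 keratins, 1.59 for the basal markers and between -0.27 and 0.85 for the other lists. The basal markers include KRT5, KRT14 and KRT17, and their median is 1.12 without these.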

How the data were processed

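Total RNA of MCF10.AT1 and MCF10.AT1-R was hybridised to Clariom D arrays, 3 per line. The authors made log2 expression values by RMA with the Bioconductor packages affy and oligo and deposited them for all 6 arrays without a filter. RMA subtracts background, sets all arrays to a common distribution and summarises the probes of a set, so A03 may have shaped the values of the other arrays. The genome build is not given in the sources used here.

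From these values, 2995 control probe sets were left out of the comparison. Of the transcript probe sets, the test kept those whose mean on A01, A02, B02, B03 and B04 exceeded the overall median (1.88). Their SD over the same arrays, both lines together, also had to exceed the lowest 25% (0.18). R 4.3.3 ran the linear model and moderated test of limma 3.58.1 (lmFit, eBayes), and p-values were adjusted over all 51457 tested probe sets by the Benjamini-Hochberg method, with a threshold of FDR 5%. On simulated data the fit recovered the sizes of the changes, called few of the smaller ones and made false calls above its nominal share. Tables and plots were made in Python 3.11.15 with pandas 2.3.3 and matplotlib 3.10.9. A probe set was called within the negative controls on an array when it was below 2.99, which is the average of the negative controls' 95th percentile on the 5 arrays.

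The members and lists were chosen with earlier results of these data known. Named genes are the 8 members, the members of each list past FDR 5% with the largest differences (at most 4 in each direction), the symbols nearest to each member in profile, and the pseudogenes of the members. Cluster neighbours and some markers were named beside them. Some genes that the rule names are not reported here. LORICRIN was not matched to a symbol. No protein sequences were used here. The depth of an array is not a count, and the number of arrays limits the precision. The alternatives changed the arrays, filters, normalization, variance model and threshold. Raw scans and the study's sequencing, PCR and mouse work were not used here.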

Additional observations from a re-analysis of the deposited data

How the results depend on the processing

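The keratins stood higher in MCF10.AT1-R under every setting tried. Changes of filter, variance model or threshold leave a difference as it is. Its direction could thus have changed only with the arrays, their weights or the normalization. Of the 8, 7 passed FDR 5% as reported, 8 with a variance trend, 6 to 7 when 1 array was left out (6 without A01 or without A02, where the lone parental array is assumed to vary like the others) and 1 when A03 was added, when their median difference was 3.03 in place of 1.79. The call of KRT16 was lost without A01, without A02 and with A03 (adjusted p = 0.593), and KRT15 was called with the trend, alone or with the low-expression filter (adjusted p = 0.00347). With A03 the shift of KRT5 over KRT14 turned to 0.43 and that of KRT6A over KRT5 to -0.20.

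Of all probe sets, 620 were called as reported, 26 with A03 added, 386 at FDR 1%, 182 with the low-expression filter alone, 177 without a filter, 272 with values raised to the negative-control level, 1377 with the trend, 1086 with the trend and the low-expression filter, and 271 (without A02) to 595 (without B03) with 1 array left out, of which 314 were without A01. Over the related lists and the marker lists together, with each gene counted once, 30 calls were made as reported. These lists include the members KRT5, KRT14 and KRT17. The calls were 4 with A03, 19 with the low-expression filter alone, 18 without a filter and 47 with the trend. With 1 resistant array left out they were 25 (without B04) to 28 (without B03). The causes of these moves were not tested. No paired analysis was possible because the array names carry no replicate number.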

Other observations

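Proliferation genes were measured beside the keratins. Of 8 genes (MKI67, TOP2A, CCNB1, CDK1, PCNA, MCM2, BUB1 and AURKA), 4 were tested and none passed FDR 5% by limma in either direction, while 1 (TOP2A) had an unadjusted p under 0.05. The log2 differences ran from -0.67 for TOP2A to 0.08 for MCM2, with 7 of 8 below 0 and a median of -0.27. For 6 of the 8, all resistant arrays were below both parental arrays. The share of all probe sets separated in this direction was not computed, so nothing is read from that count. With the variance trend, TOP2A was called lower (adjusted p = 0.00666).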
